A study of Mus musculus with 12 samples.

Results

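Long intergenic noncoding RNA (lincRNA) genes on the autosomes that were expressed in the liver were taken from a count table of 54232 Ensembl genes. A gene was a member when GENCODE M21, the mouse gene annotation on the GRCm38 genome, gave it the biotype lincRNA and when its mean raw count over the 12 livers was at least 20. This left 188 of 4820 autosomal lincRNA genes, or 3.90%. Most of the others were silent, since 3098 of the 4820 (64.3%) had 0 reads in every liver. The members were thus chosen by their mean raw count, and their levels are given as a description. The mean ran over both genotypes, and 177 of the 188 genes also reached 20 reads on average in each genotype alone. At the edge of the threshold, 4831440E17Rik and Gm40787 had a mean of 20 reads, and Gm45495 and Gm10605 fell just outside with 19.9 and 19.7 reads. The symbol C730027H18Rik stands for 2 identifiers, and both are members.

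The livers came from 12 male C57Bl/6J littermates aged 10 weeks that ate chow and were fasted for 4 h. In all of them both alleles of Marchf6, a ubiquitin ligase of the endoplasmic reticulum membrane, carried loxP sites (fl/fl). The 6 WT mice lacked AlbuminCre, and in the 6 LKO mice AlbuminCre, which the albumin promoter drives in hepatocytes, was present to delete 1 exon of Marchf6, which the study's methods give as exon 3 in one place and as exon 2 in another. Total liver tissue was sequenced after poly(A) selection, with 1 library for each mouse, and 14860414 to 22111926 reads per liver were counted on genes. The library numbers of the WT mice all come before those of the LKO mice, so genotype and library order cannot be told apart. Reads over the whole Marchf6 gene ranged from 226 to 247 normalized CPM (a read count scaled to the library size) in WT and from 204 to 249 in LKO livers, so these gene-level counts did not separate the genotypes, and reads on the deleted exon alone were not analysed here.

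lincRNA genes are transcribed from DNA between protein-coding genes and give spliced, often polyadenylated RNAs with no long reading frame. Some act as scaffolds inside the nucleus, some bind RNA-binding proteins or microRNAs in the cytoplasm, and some serve mainly as precursors from whose introns or exons small RNAs are cut. For others the act of transcription, rather than the RNA, is known to affect a neighbouring gene, and for most lincRNA genes no role is known. Their expression is as a rule lower and more restricted to certain tissues than that of protein-coding genes.

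None of the 188 lincRNA genes passed an adjusted p of 0.05 between LKO and WT livers with the quasi-likelihood test of edgeR, adjusted by the Benjamini-Hochberg method over 17509 genes, of which 75 (0.428%) passed. At an unadjusted p under 0.05 there were 21 lincRNA genes (11.2%), beside 11.7% of all genes tested (2047). Of these, 8 had higher values in LKO livers (4.26% of the members, beside 6.33% of all genes) and 13 had lower values (6.91%, beside 5.36%). limma voom also called 0 members, beside 0.485% of all genes, with 23 at an unadjusted p under 0.05, beside 12.0% of all genes. DESeq2 called 5 members (Gm48633, 1700001L05Rik, Gm32468, C730036E19Rik and Gm43597) and 2.31% of all genes to which it gave an adjusted p. It gave 23 members an unadjusted p under 0.05, beside 11.6% of all genes. In 2 members, Gm48633 and C730036E19Rik, every LKO liver lay below every WT liver. That is 1.06% of the members. Groups without overlap were seen in 1.3% of all genes tested, and in 0.554% with the LKO livers lower.

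The fitted log2 fold changes of LKO against WT were centred near 0. Their median was −0.01 in the 188 lincRNA genes and 0.00 in all genes tested, with 90 members above 0 and 98 below. In 124 members (66%) the log2 fold change was within 0.25 of 0, beside 71.5% of all genes. Only Gm32468 and Gm42031 differed by more than 1 on the log2 scale, and Gm42031 met the minimum count only through its WT livers. The standard errors (SE) of the log2 fold changes of the members had a median of 0.20 and ran from 0.05 to 0.92. The 95% interval of the log2 fold change lay within 1 of 0 in 160 members and within 0.5 in 61. For the other 28 members a difference of 1 on the log2 scale was not outside the interval at this depth and spread. Each p-value sets the difference between genotypes against the spread between these mice.

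**Figure D1:**
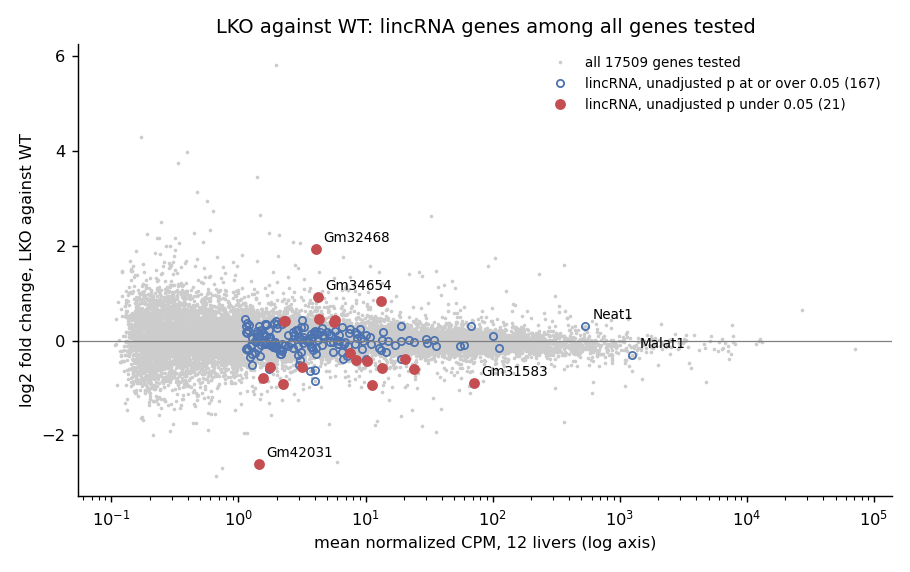
Each grey point is 1 of the 17509 genes tested, with the mean normalized CPM of the 12 livers on a log axis and the log2 fold change of LKO against WT on the vertical axis. The 188 lincRNA genes are drawn over them, filled where the unadjusted p was under 0.05 (21 genes), and most lie close to 0 apart from Gm32468 above and Gm42031 below.

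Average levels of markers of some other cell types differed between the groups, while the WT and LKO ranges of every summed list overlapped. The summed level of 6 Kupffer cell markers was 81.7 to 109 CPM in WT and 105 to 178 CPM in LKO livers, and all 6 were higher on average in LKO livers. All 7 stellate cell markers and all 6 B cell markers were also higher on average, with sums of 136 to 213 and 165 to 233 CPM for stellate cells and of 0.942 to 2.09 and 1.72 to 3.23 CPM for B cells. The sum of 6 hepatocyte markers was 92046 to 114142 CPM in WT and 83740 to 94783 CPM in LKO livers. Only 1 of these 6 had a higher fitted level in LKO livers. The median log2 fold change was 0.69 for B cell, 0.41 for Kupffer cell, 0.29 for T cell and 0.03 for endothelial markers. It was 0.19 for stellate cell, erythroid and cholangiocyte markers, and −0.11 for hepatocyte markers. Of the tested markers, 4 of 6 for sinusoidal endothelium, 4 of 4 for T cells, 4 of 6 for cholangiocytes and 4 of 5 for erythroid cells had higher fitted levels in LKO livers. The median sums in WT and LKO livers were 169 and 184 CPM for endothelium, 1.42 and 1.78 CPM for T cells, 50.5 and 46.6 CPM for cholangiocytes and 202 and 192 CPM for erythroid cells. No marker passed the adjusted p with edgeR and none was at 0. The part of these differences in the lincRNA values was not tested. In whole liver, fewer cells of a type and less RNA per cell cannot be told apart.

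Of the sequences that bear on the comparison, the start regions of 5 members with a low p are printed first. They are RefSeq promoters on GRCm38.p6, from 250 bases before to 50 bases after the RefSeq start, and an entry exists for 110 of the 188 members. In 56 of these the RefSeq start lies within 50 bases of the GENCODE start. Capitals mark matches to 7 motifs searched on both strands. They are the TATA box spelled TATAAA, the CCAAT box, the GC box spelled GGGCGG, the E-box spelled CACGTG, the nuclear receptor half-site spelled AGGTCA, the forkhead site spelled TGTTTAC and the sterol regulatory element spelled TCACNCCAC. The E-box reads the same on both strands, and a GC box is counted on either. The regions are Gm32468 at chr10:93083986-93084285 on the plus strand, 1700001L05Rik at chr15:83367248-83367547 on the minus strand, C730036E19Rik at chr1:151137784-151138083 on the plus strand, Gm31583 at chr16:24090016-24090315 on the minus strand and Gm38416 at chr8:117681372-117681671 on the plus strand.
Gm32468: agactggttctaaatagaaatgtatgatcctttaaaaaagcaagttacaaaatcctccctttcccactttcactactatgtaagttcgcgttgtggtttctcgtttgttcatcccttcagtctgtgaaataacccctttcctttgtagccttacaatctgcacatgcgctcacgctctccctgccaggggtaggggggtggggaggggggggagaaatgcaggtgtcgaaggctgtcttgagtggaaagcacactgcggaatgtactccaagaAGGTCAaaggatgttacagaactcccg
1700001L05Rik: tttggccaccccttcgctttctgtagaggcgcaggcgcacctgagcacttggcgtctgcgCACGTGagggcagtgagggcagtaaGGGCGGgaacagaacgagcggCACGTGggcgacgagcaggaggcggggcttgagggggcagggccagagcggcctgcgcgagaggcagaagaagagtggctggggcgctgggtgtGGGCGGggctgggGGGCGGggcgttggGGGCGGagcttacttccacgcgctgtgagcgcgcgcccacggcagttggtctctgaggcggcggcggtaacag
C730036E19Rik: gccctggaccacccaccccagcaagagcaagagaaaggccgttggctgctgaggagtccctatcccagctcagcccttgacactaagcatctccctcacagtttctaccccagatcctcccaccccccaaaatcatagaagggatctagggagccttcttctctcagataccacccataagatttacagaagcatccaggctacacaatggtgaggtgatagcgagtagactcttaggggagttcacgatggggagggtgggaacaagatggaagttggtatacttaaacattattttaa
Gm31583: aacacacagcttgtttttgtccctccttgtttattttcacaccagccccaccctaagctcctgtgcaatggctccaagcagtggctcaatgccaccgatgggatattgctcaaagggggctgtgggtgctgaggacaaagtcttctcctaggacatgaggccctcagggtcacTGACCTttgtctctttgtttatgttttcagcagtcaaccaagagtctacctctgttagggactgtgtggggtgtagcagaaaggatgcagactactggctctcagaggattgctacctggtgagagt
Gm38416: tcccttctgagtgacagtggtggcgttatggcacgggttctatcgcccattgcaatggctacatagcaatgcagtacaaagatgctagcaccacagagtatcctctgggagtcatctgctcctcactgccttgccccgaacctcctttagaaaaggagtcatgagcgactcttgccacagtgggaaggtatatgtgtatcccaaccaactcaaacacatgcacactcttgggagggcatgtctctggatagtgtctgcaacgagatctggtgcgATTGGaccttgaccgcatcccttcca

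The start of 1700001L05Rik differed from the other 4 in base composition. Its 300 bases had a GC content of 70.3% and 30 CpG dinucleotides, with an observed over expected CpG ratio of 0.89, 4 matches to the GC box and 2 to the E-box. The other regions had 47.7% to 51.7% GC and 1 to 8 CpG dinucleotides. Gm32468 held 1 nuclear receptor half-site 23 bases after the start. Gm31583 held 1 on the minus strand 77 bases before the start, Gm38416 held 1 CCAAT box on the minus strand, and C730036E19Rik held none of the motifs. Among the 56 lincRNA genes with matching starts, 20 (35.7%) held a GC box, as did 35.7% of all 32851 RefSeq promoters of the same length. The shares for the members and for all promoters were 42.9% and 37.4% for the CCAAT box, 17.9% and 7.15% for the E-box, 19.6% and 16.3% for the nuclear receptor half-site, and 16.1% and 13.6% for the TATA box. The forkhead sequence was in 0 of the 56 and in 3.65% of all promoters. The sterol regulatory element was in 2 of the 56 (3.57%) and in 1.24% of all promoters. The median GC content was 52.2% in the members and 52.7% in all promoters.

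Reads on the 188 genes made up 0.288% to 0.393% of a WT library and 0.290% to 0.346% of an LKO library, with medians of 0.320% and 0.317%. These were 46043 to 74768 reads per liver. Malat1 and Neat1 together took 55.1% of them, and the 10 most abundant members took 71.7%. The mean level of a member ran from 1.13 to 1251 CPM with a median of 3.34 CPM, and 154 of the 188 genes stayed under 10 CPM. Divided by exon length, the levels ran from 0.136 to 179 CPM per kb with a median of 1.73, and the 13562 protein-coding genes tested had a median of 2.86 CPM per kb. There were 62 members at or above that protein-coding median. The cutoffs were unlike, since only 11281 of these protein-coding genes reached the mean of 20 reads required of the members. The lincRNA genes were also shorter and had fewer exons than the protein-coding genes tested. Their merged exons had a median length of 2306 nt beside 4419 nt, and the transcript with the most exons had a median of 3 exons beside 9. In 27 members no annotated transcript had more than 1 exon.

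**Figure D2:**
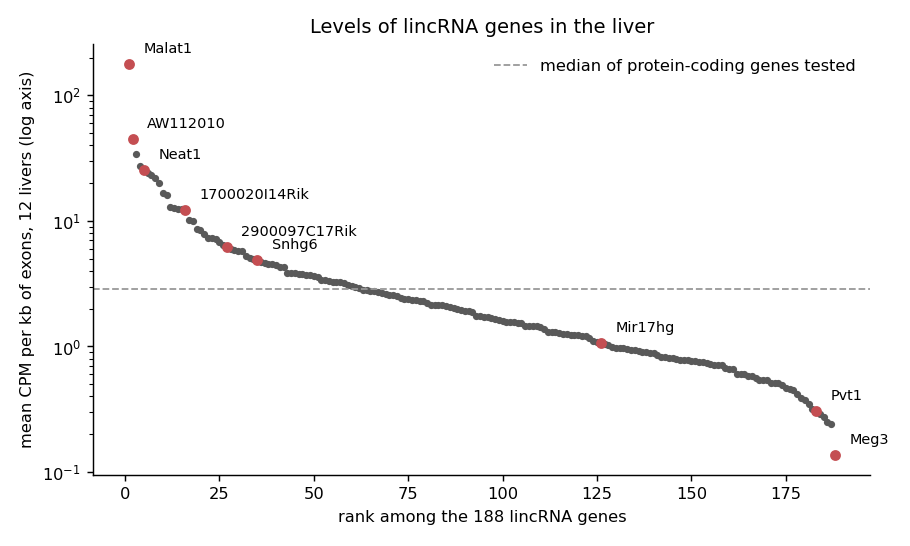
Each point is 1 of the 188 lincRNA genes, ranked by the mean CPM per kb of exons over the 12 livers (log axis). The dashed line is the median of the protein-coding genes tested (2.86 CPM per kb), for which no minimum mean count was set. Malat1 stands far above the other members at 179 CPM per kb.

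Malat1 and Neat1, whose RNAs lie in nuclear bodies, had the highest mean CPM of the members in these poly(A)-selected libraries. How fully the selection captured these RNAs was not tested. Malat1 (chr19:5795690-5802672, minus strand), whose RNA lies in nuclear speckles, had a lowest, median and highest value of 1048, 1316 and 1995 CPM in WT livers and of 874, 1157 and 1319 CPM in LKO livers. The groups overlapped, and 4 of the 6 LKO livers lay within the WT range. Malat1 had a log2 fold change of −0.30 (SE 0.15, edgeR adjusted p = 0.449). Neat1 (chr19:5824708-5845478, minus strand), the scaffold of paraspeckles, had 350, 499 and 608 CPM in WT and 422, 523 and 871 CPM in LKO livers. In LKO livers 1 and 2 its level was above every WT liver, and the other 4 LKO livers lay within the WT range. The log2 fold change of Neat1 was 0.31 (SE 0.18, edgeR adjusted p = 0.526), opposite in sign to that of Malat1, which lies on the same chromosome and strand. Both signs held with each liver left out, but the sizes did not, with 0.17 for Neat1 without LKO liver 1 and −0.16 for Malat1 without WT liver 5. Next in abundance were Gm26917, with medians of 118 CPM in WT and 105 CPM in LKO livers, 1700020I14Rik and Gm31583.

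Among widely expressed and conserved lincRNA genes, 2900097C17Rik had one of the narrowest spreads. This gene is Norad, whose RNA binds Pumilio proteins, and its levels were 28.3 to 33.9 CPM in WT and 27.0 to 34.2 CPM in LKO livers. The groups covered almost the same range, and the log2 fold change was −0.05 with a 95% interval from −0.20 to 0.10. 1700020I14Rik is Cyrano, an RNA known for a site that triggers the decay of a microRNA. It had 81.4 to 116 CPM in WT and 80.8 to 118 CPM in LKO livers, with a log2 fold change of 0.10 (SE 0.11). Lncpint, a p53-responsive gene, had a median of 3.96 CPM in WT and 2.84 CPM in LKO livers, and its log2 fold change was −0.62 (SE 0.30, edgeR adjusted p = 0.441). Pvt1, which lies 47612 bp from the proto-oncogene Myc, had 0.875 to 4.71 CPM in WT and 1.37 to 2.56 CPM in LKO livers. The imprinted gene Meg3, expressed from the maternal allele, had the lowest level per kb of all members. Its median was 2.01 CPM in WT and 1.86 CPM in LKO livers, and WT liver 5 and LKO liver 4 stood above the rest at 5.44 and 5.41 CPM. None of these 5 genes had an unadjusted p under 0.05 with edgeR on all 12 livers. Lncpint had such a p under some alternatives, DESeq2 and limma voom among them, and not under others.

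Host genes of small RNAs came next in order of role. Of 29 annotated genes on a list of such hosts, 6 were members, and 5 of the 6 had higher fitted levels in LKO livers, with an unadjusted p under 0.05 in 2 and an adjusted p under 0.05 in none (edgeR). Of all genes tested, 50.0% had higher fitted levels and 11.7% had an unadjusted p under 0.05. Snhg6, which carries the small nucleolar RNA gene Snord87, had a lowest, median and highest value of 3.77, 4.63 and 6.03 CPM in WT and of 5.09, 6.17 and 8.39 CPM in LKO livers. Every LKO liver was above the WT mean, but the groups overlapped. Snhg6 had a log2 fold change of 0.38 (SE 0.15, edgeR adjusted p = 0.312). Epb41l4aos had 2.90, 3.30 and 5.02 CPM in WT and 3.16, 4.91 and 6.45 CPM in LKO livers, with a log2 fold change of 0.45 (SE 0.18, edgeR adjusted p = 0.325). For the others the log2 fold change was 0.16 in Snhg12, 0.23 in Snhg18, −0.07 in Snhg20 and 0.07 in Mir17hg. Snhg18 lies 0.710 Mb from Marchf6, the shortest distance among the 8 members on chromosome 15.

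Counted from the annotation, 12 members hold a microRNA or small nucleolar RNA gene, and they include the 6 hosts on the list above. Of the 12, 8 had higher fitted levels in LKO livers, beside 50.0% of all genes tested. These 8 include the 5 listed hosts already given as higher. Mature microRNAs are too short for these libraries, so only the host transcripts were measured. The mature sequences from 3 hosts are shown as the products of these members, with the seed (bases 2 to 8) in capitals, so that shared seeds can be seen. They come from RefSeq on GRCm38.p6, with the first 3 from 6720427I07Rik, the next 6 from Mir17hg and the last from E130102H24Rik.
let-7d-5p: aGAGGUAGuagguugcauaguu
let-7f-5p: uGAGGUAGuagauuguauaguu
let-7a-5p: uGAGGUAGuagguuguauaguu
miR-17-5p: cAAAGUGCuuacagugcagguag
miR-20a-5p: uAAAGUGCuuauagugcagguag
miR-18a-5p: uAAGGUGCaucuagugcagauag
miR-19a-3p: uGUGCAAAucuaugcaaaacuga
miR-19b-3p: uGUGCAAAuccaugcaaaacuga
miR-92a-3p: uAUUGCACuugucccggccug
miR-101a-3p: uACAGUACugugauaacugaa

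The 3 let-7 microRNAs of 6720427I07Rik share 1 seed. In Mir17hg, the host of the cluster miR-17 to miR-92, miR-17-5p and miR-20a-5p share a seed, miR-19a-3p and miR-19b-3p share another, and miR-18a-5p and miR-92a-3p each have their own. The let-7 host 6720427I07Rik had 3.65 to 5.99 CPM in WT and 4.86 to 6.27 CPM in LKO livers, with a log2 fold change of 0.14 (SE 0.12). Mir17hg had 2.76 to 5.32 CPM in WT and 3.24 to 4.93 CPM in LKO livers, so the LKO range lay inside the WT range. E130102H24Rik, which holds Mir101a, had 4.70 to 7.30 CPM in WT and 3.58 to 6.10 CPM in LKO livers, with a log2 fold change of −0.24 (SE 0.14). None of these 3 hosts had an unadjusted p under 0.05 with edgeR on all 12 livers. A list of 3 annotated noncoding genes tied to liver lipid metabolism gave no member. Gm16551 and Gm15441 have other biotypes, and the lincRNA gene AI427809 was below the minimum mean count.

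The 21 members with an unadjusted p under 0.05 had no role on these lists apart from Snhg6 and Epb41l4aos. The lowest p belonged to Gm48633 (chr12:7911889-7950061, minus strand), a gene of 2 exons. It had a lowest, median and highest value of 21.1, 22.9 and 25 CPM in WT livers and of 14.6, 17.8 and 19.9 CPM in LKO livers. All 6 LKO livers were below all 6 WT livers, and the means were 23.0 ± 1.37 and 17.7 ± 2.03 CPM (SD, n = 6). The log2 fold change was −0.38 (SE 0.08), with an adjusted p of 0.0574 by the quasi-likelihood test of edgeR and the Benjamini-Hochberg method. Its nearest protein-coding gene was Apob, which encodes the structural protein of very-low-density lipoproteins. Apob starts 27587 bp away on the opposite strand and points away from Gm48633. Apob had 5739 to 7791 CPM in WT and 5612 to 6395 CPM in LKO livers, with a log2 fold change of −0.18 (SE 0.08, edgeR unadjusted p = 0.0419, adjusted p = 0.402).

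Gm32468 (chr10:93084206-93093727, plus strand) had the largest positive log2 fold change. Its lowest, median and highest values were 0.576, 1.26 and 3.81 CPM in WT livers and 3.08, 5.49 and 14.1 CPM in LKO livers. WT liver 3 lay above LKO liver 2, and LKO liver 1 stood above all others, so the groups overlapped by a pair of livers. The log2 fold change was 1.93 (SE 0.42, edgeR adjusted p = 0.0643), with a 95% interval from 1.04 to 2.82. The nearest protein-coding gene, Cfap54, encodes a protein of cilia and flagella and starts 2588 bp away in the opposite direction. Cfap54 was close to undetected, with at most 14 reads in a liver, and its log2 fold change was 0.98 (SE 0.39, edgeR unadjusted p = 0.0236, adjusted p = 0.327).

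1700001L05Rik and C730036E19Rik had lower values in LKO livers, with log2 fold changes of similar size. 1700001L05Rik (chr15:83353847-83367282, minus strand) had 14.3, 15.9 and 19 CPM in WT and 7.84, 11.2 and 14.5 CPM in LKO livers as its lowest, median and highest values. Only LKO liver 6 reached the WT range. Its log2 fold change was −0.59 (SE 0.14, edgeR adjusted p = 0.0828). The nearest protein-coding gene, Arfgap3, which acts on ARF1 at the Golgi, lies 3600 bp away on the same strand and had a log2 fold change of 0.09 (SE 0.18). C730036E19Rik (chr1:151138034-151142345, plus strand) had 26.5, 28.6 and 33.9 CPM in WT and 12.1, 19.6 and 25.4 CPM in LKO livers, without overlap. Its log2 fold change was −0.60 (SE 0.14, edgeR adjusted p = 0.0898). The nearest protein-coding gene, Gm47985, had 0 reads in every liver, and the nearest tested one, the extracellular matrix gene Hmcn1 at 144599 bp, had a log2 fold change of 0.03 (SE 0.18).

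**Figure D3:**
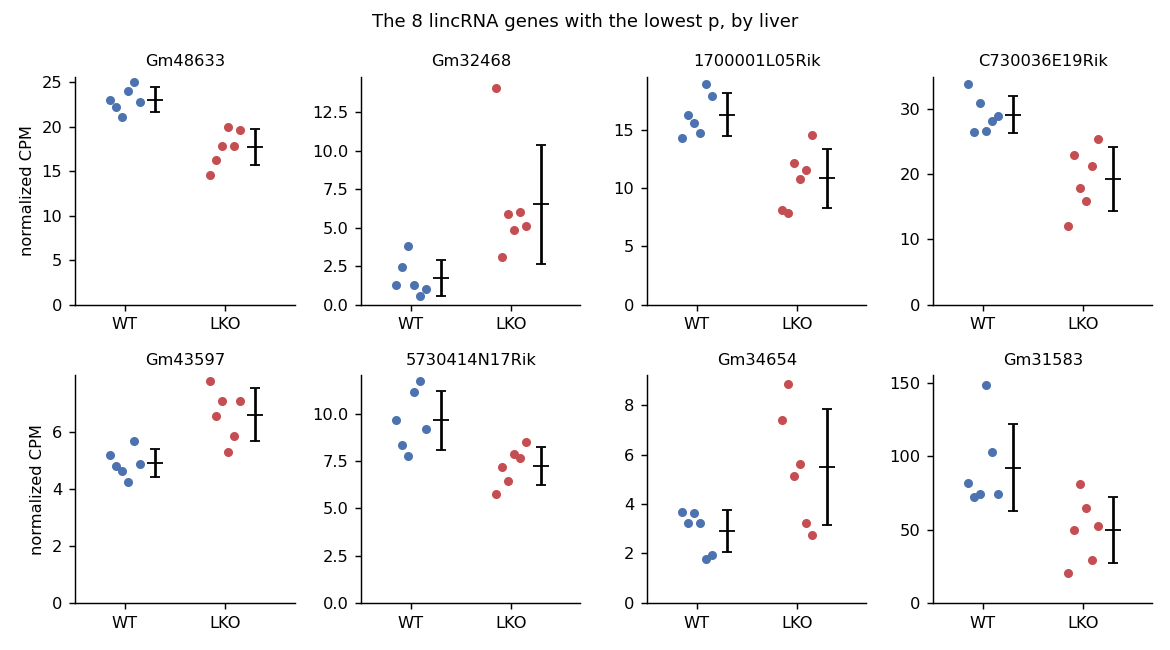
The 8 lincRNA genes with the lowest p are shown with 1 point for each liver and normalized CPM on axes that start at 0. The bars give the mean and SD of 6 livers, and the groups are apart in Gm48633 and C730036E19Rik and overlap in the other 6.

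The genes with the next lowest p values overlapped between the groups. Gm43597 (chr5:150599932-150607003) had 4.24 to 5.71 CPM in WT and 5.30 to 7.81 CPM in LKO livers, with a log2 fold change of 0.43 (SE 0.11, edgeR adjusted p = 0.128). Its neighbour N4bp2l2, 1004 bp away on the same strand, had a log2 fold change of −0.04 (SE 0.07). 5730414N17Rik (chr15:98872644-98874082), a gene of 1 exon, had 7.75 to 11.7 CPM in WT and 5.77 to 8.49 CPM in LKO livers. It starts 1440 bp from Kmt2d, a histone H3 lysine 4 methyltransferase that runs the other way, and the log2 fold changes were −0.42 (SE 0.12) for the lincRNA gene and −0.20 (SE 0.10) for Kmt2d. Gm34654 (chr9:77807036-77809793) had 1.78 to 3.66 CPM in WT and 2.76 to 8.85 CPM in LKO livers, with a log2 fold change of 0.92 (SE 0.28). Its neighbour Gclc, the catalytic subunit of the enzyme that begins glutathione synthesis, ends 12551 bp away and had a log2 fold change of 0.32 (SE 0.29). In LKO liver 1 Gclc reached 570 CPM, and the next LKO liver had 234 CPM.

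Gm31583 (chr16:24085083-24090089, minus strand) was the most abundant of the 21. Its lowest, median and highest values were 72.1, 78.0 and 149 CPM in WT livers and 20.5, 51.0 and 81.0 CPM in LKO livers. LKO liver 3 was above 3 of the WT livers, and the other 5 LKO livers were below all of them. The log2 fold change was −0.90 (SE 0.28, edgeR adjusted p = 0.215). Bcl6, a transcriptional repressor and the nearest protein-coding gene at 96231 bp, varied widely within both groups, from 14.7 to 94.6 CPM in WT and from 12.1 to 110 CPM in LKO livers. Gm38416 (chr8:117681622-117693198, plus strand) had 7.24 to 28.0 CPM in WT and 3.57 to 12.4 CPM in LKO livers, with a log2 fold change of −0.93 (SE 0.33). Its neighbour Sdr42e1, a short-chain dehydrogenase/reductase gene that starts 7933 bp away, had a log2 fold change of −0.19 (SE 0.09).

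Gm42031 (chr8:85125872-85132289) had the most negative log2 fold change and the largest SE of all members, −2.60 with an SE of 0.92. Livers of both genotypes were near 0. WT livers 1 and 2 had 1 read each, and the other 4 WT livers had 20 to 103 reads. Among LKO livers, 4 had at most 2 reads and the others had 15 and 28. Within each genotype some livers thus had almost no reads and others had 15 reads or more, and the log2 fold change rests on a few livers. The mean raw count of Gm42031 was 25 reads over the 12 livers but under 20 in LKO livers alone. It thus became a member through its WT livers. The adjusted p was 0.270 with edgeR. Its neighbour Zfp791, a zinc finger gene 2777 bp away on the same strand, had a log2 fold change of −0.61 (SE 0.32).

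The remaining 9 of the 21 genes had levels from 1.14 to 17 CPM on average in a group and overlapped between the groups. Gm17753, A930038B10Rik, Gm47465, Gm36264, C130083M11Rik and Gm5113 had lower fitted levels in LKO livers, with log2 fold changes from −0.92 to −0.26. Gm19619, Gm42047 and 1700096K18Rik had higher fitted levels, with log2 fold changes of 0.41, 0.83 and 0.41. The adjusted p values of these genes with edgeR ran from 0.226 to 0.377. Gm42047 reached 33.8 CPM in LKO liver 1 and 8.54 to 19.2 CPM in the other LKO livers, beside 3.35 to 13.1 CPM in WT livers. Gm5113 starts 125 bp from the zinc finger gene Zfp146 in the opposite direction, and the log2 fold changes of the pair were −0.26 (SE 0.11) and −0.22 (SE 0.11).

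The 188 lincRNA genes lay close to protein-coding genes. The median distance to the nearest was 3844 bp, 34 members overlapped it, 103 lay within 5 kb and 15 lay more than 100 kb away. Of the pairs within 5 kb, 36 were divergent, 34 on the same strand and 7 convergent, and 26 members overlapped a protein-coding gene on the opposite strand. For these 26 the strand setting of the counting matters, and it is not given in the sources used here, so their values are uncertain. The members had 173 distinct nearest protein-coding genes, of which 151 were tested. None of the 151 passed an adjusted p of 0.05 with edgeR, and 20 (13.2%) had an unadjusted p under 0.05, beside 11.7% of all genes tested. In 163 pairs of a lincRNA gene and a tested nearest gene, the log2 fold changes had the same sign in 97, with a Pearson r of 0.37 and a Spearman rho of 0.30. These pairs share the 12 libraries and some share a neighbour, so the coefficients describe these livers only. In the 96 such pairs within 5 kb the sign was the same in 53, with r = 0.49 and rho = 0.23. They include the members with the largest log2 fold changes, Gm32468 with Cfap54 (1.93 and 0.98) and Gm42031 with Zfp791 (−2.60 and −0.61). Cfap54 had at most 14 reads in a liver, and r without these pairs was not computed.

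For 5 of the 21 genes the nearest protein-coding gene had too few reads to be tested, and the nearest tested gene was taken in its place. These substitutes were Hmcn1 for C730036E19Rik, Tcf24 for Snhg6, Arhgap32 for Gm47465, Klhdc4 for Gm42047 and Kmt2c for 1700096K18Rik. With them, the signs were the same in 16 of 21 pairs, in 6 of 8 where the lincRNA gene was higher and in 10 of 13 where it was lower. Among the same-sign neighbours, Bcl6, Gclc, Dhx15, Wapl, Arhgap32 and Tcf24 changed sign under at least 1 alternative. Among those of opposite sign, Arfgap3, Hmcn1 and Kmt2c did so. Of the 21 protein-coding genes, 4 (Cfap54, Btc, Apob and Tcf24) had an unadjusted p under 0.05, beside 11.7% of all genes tested, and the lowest adjusted p was 0.327 with edgeR. Without the substitutes the count was 3 of 16. Btc, which encodes the growth factor betacellulin, lies 73840 bp from Gm19619 on the same strand and had 1.59 to 3.06 CPM in WT and 2.01 to 5.67 CPM in LKO livers. Epb41l4a, which converges on Epb41l4aos at 341 bp, had at most 12 reads in a liver. Snhg6 overlaps Mcmdc2, which had at most 4 reads.

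**Figure D4:**
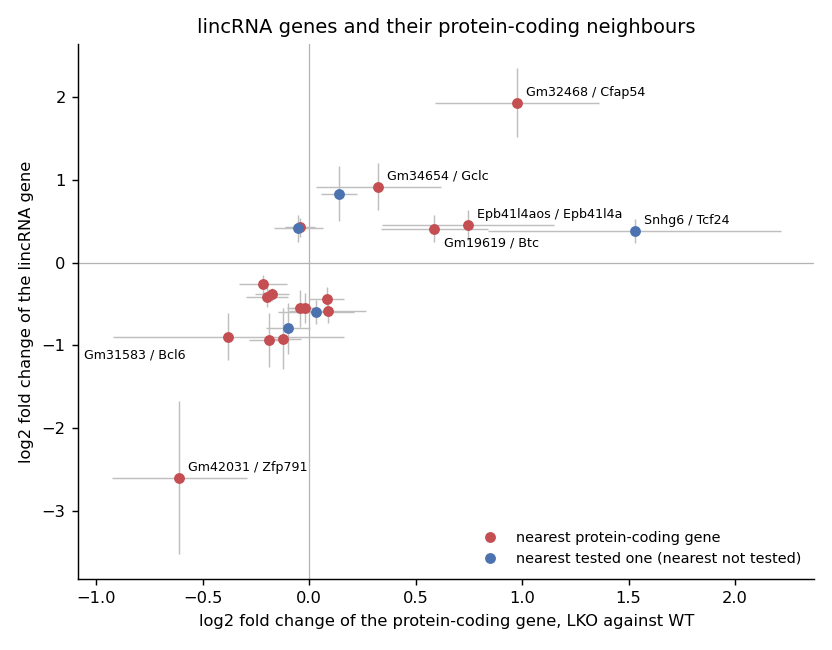
Each point is 1 of the 21 lincRNA genes with an unadjusted p under 0.05, with the log2 fold change of its protein-coding neighbour on the horizontal axis and its own on the vertical axis (bars are SE). In 16 of the 21 pairs both lie on the same side of 0, and Gm42031 and its neighbour Zfp791 lie lowest.

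The members varied more between mice of 1 genotype than protein-coding genes did. The coefficient of variation (CV) of a lincRNA gene had a median of 24.6% over WT and 22.8% over LKO livers. The biological part of the CV estimated by edgeR had a median of 19.2% in the members and 12.5% in the 11281 protein-coding genes with the same minimum count, whose median mean count was higher (338 reads beside 58.7). In 46 members the CV was under 20% in both genotypes. The narrowest spread was that of Tmem250-ps, with 55.9 to 67.1 CPM over the 12 livers.

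At the other end, 8 members had a CV over 50% in both genotypes, namely Gdap10, Meg3, Gm32468, Gm48199, E230001N04Rik, Gm45301, Gm15611 and Gm42031. Of these, 3 genes on different chromosomes, chosen after their values were seen, had the same 3 WT livers high. Gm48199 had 11.7 to 16.1 CPM in WT livers 1, 2 and 3 and 2.49 to 4.55 CPM in WT livers 4, 5 and 6. Gm45301, which lies 19332 bp from the glycogen-targeting phosphatase subunit gene Ppp1r3b, had 6.36 to 8.83 CPM in the first 3 of these livers and 1.74 to 3.30 CPM in the others. E230001N04Rik starts 5193 bp from Fkbp5, a glucocorticoid-responsive cochaperone gene, and had 1.80 to 3.37 and 0.644 to 0.890 CPM. In LKO livers all 3 genes were above the LKO median in liver 2, with 11.9, 8.45 and 2.01 CPM, and in LKO liver 6 Gm48199 and E230001N04Rik were highest at 17.9 and 4.43 CPM while Gm45301 had 1.46 CPM. Their log2 fold changes between genotypes were −0.08 (SE 0.51), −0.86 (SE 0.55) and 0.08 (SE 0.51), in the order Gm48199, Gm45301 and E230001N04Rik. None of the 3 had an unadjusted p under 0.05 with edgeR on all 12 livers.

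**Figure D5:**
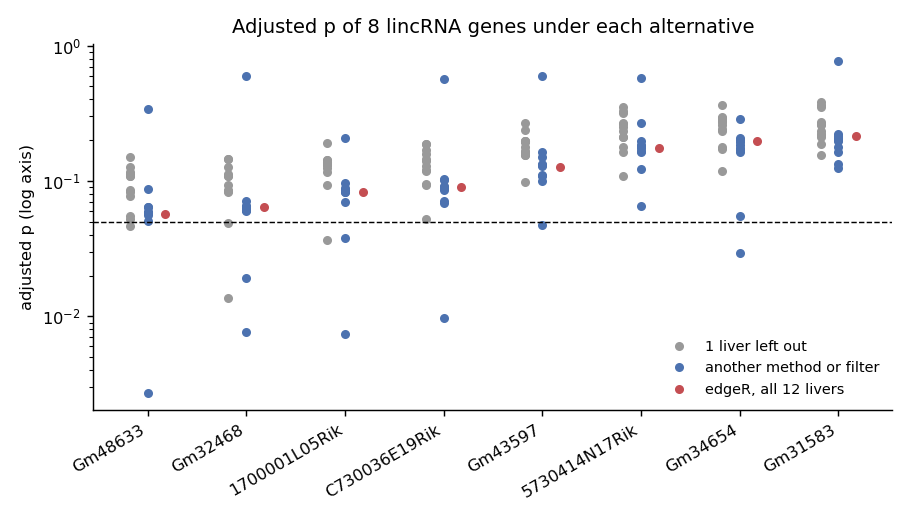
For the 8 lincRNA genes with the lowest p, each point is the adjusted p (log axis) under 1 alternative, with grey points for 1 liver left out, blue points for another method or filter and red points for edgeR on all 12 livers. The dashed line is 0.05, and 6 of the 8 genes have at least 1 point below it while all red points lie above it.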

How the data were processed

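Total liver RNA was made into libraries by the authors with the KAPA mRNA HyperPrep kit and run on a HiSeq4000. Per the labels and the study's methods, Trimmomatic 0.36, HISAT2 2.1.0 (Ensembl 93, GRCm38) and HTSeq 0.6.1 trimmed, aligned and counted the reads. The authors deposited the counts as raw whole numbers for every gene, and the strand setting is not given in the sources used here. Livers were grouped by the genotype in the labels. Biotypes and coordinates came from GENCODE M21, which held 54165 of 54232 identifiers. A gene was tested when 6 or more livers had over 2 reads. TMM-scaled counts were fitted in edgeR 4.0.16 (R 4.3.3) with no term but genotype, and p-values were adjusted over 17509 genes. Each SE is the size of the log2 fold change divided by the root of F. Alternatives were RLE and upper-quartile scaling, TMM without the 20 most abundant genes, other filters, limma 3.58.1 voom, DESeq2 1.42.0, 1 surrogate variable (sva 3.50.0), the replicate number as a block, and each liver left out. Intervals and depth cover no error beyond these reads and mice. The sources used here do not mention molecular identifiers for the reads.

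The members, lists and alternatives were chosen with earlier results of these data known. Named were members by rising p while p was under 0.05, their nearest protein-coding genes by the gap between gene bodies, the 5 most abundant members, those at the threshold and members on the lists of roles. Genes named for a wide or narrow spread or for their microRNAs, and the nearest tested gene as a substitute, were added once the data had been seen. A pair of lincRNA genes is not reported here.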

Additional observations from a re-analysis of the deposited data

Results flagged for a closer look

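In 7 of 108 groups of 6 livers, 1 liver stood apart from the other 5, judged by its gap to the next liver as a share of the whole range (a gap over Dixon's 95% critical value). Chance alone gives about 1 in 20 groups, or 5.4 of 108. Among lincRNA genes, Gm32468 was highest in LKO liver 1 at 14.1 CPM with the next LKO liver at 6.02 CPM (a gap of 0.733 of the range), and Meg3 was highest in WT liver 5 at 5.44 CPM with the next WT liver at 2.36 CPM (0.677). Among protein-coding neighbours, LKO liver 1 was highest for Gclc at 570 CPM beside 234 CPM (0.738) and lowest for Kmt2c at 36.5 CPM beside 51.0 CPM (0.662). LKO liver 2 was highest for Bcl6 at 110 CPM beside 47.2 CPM (0.64), LKO liver 4 for Zfp791 at 3.99 CPM beside 2.28 CPM (0.635) and LKO liver 5 for Tcf24 at 2.62 CPM beside 0.698 CPM (0.753). What set these livers apart was not tested.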

How the results depend on the processing

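The count of lincRNA genes past an adjusted p of 0.05 was 0 with edgeR and stayed 0 under the scalings, the other filters, limma voom and 1 surrogate variable. It was 5 with DESeq2, 1 without a filter (Gm32468, beside 0.389% of all genes) and 0 to 2 with 1 liver left out. Without WT replicate 3 the calls were Gm32468 and Gm48633, beside 0.762% of all genes. Without LKO replicate 2 the call was Gm32468, beside 0.369%, and without LKO replicate 6 it was 1700001L05Rik, beside 0.377%. The cause was not tested. With the replicate number as a block 2 were called (Gm34654 and 1700001L05Rik), beside 0.554% of all genes, and 29 members had an unadjusted p under 0.05, beside 13.3%. The numbers belong to different mice, the correlations of same-numbered livers ran from −0.065 to 0.135, with 4 of 6 over 0.1, and 2 of 6 livers correlated best with their own number. Since not every correlation was over 0.1, the livers were not treated as pairs. The count at an unadjusted p under 0.05 ran from 15 with 1 surrogate variable (beside 7.04% of all genes) to 29. With 1 liver left out it ran from 19 to 27, beside 10.1% to 12.7% of all genes. The count of nearest protein-coding genes past the adjusted p was 0 throughout, by start site or by nearest tested gene too. A minimum mean count of 10 gave 286 members, 28 with an unadjusted p under 0.05. A minimum of 50 gave 109 members, 15 of them with such a p. Of all genes tested, 11.7% had an unadjusted p under 0.05.

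None of the 21 lincRNA genes with an unadjusted p under 0.05 changed sign under the 22 alternatives, of which 15 gave a value for Gm42031. Gm38416 ran from −1.10 to −0.28 and Gm32468 from 1.35 to 2.32 on the log2 scale. Of 1175 values of single genes, 20 in 12 genes changed sign. With 1 surrogate variable the log2 fold changes were 0.11 for Bcl6, 0.0728 for Arhgap32, −0.115 for Arfgap3, −0.0631 for Hmcn1 and −0.031 for Tcf24. With 1 liver left out they ran from −0.0155 to 0.196 for Mir17hg, −0.246 to 0.582 for Meg3, −0.437 to 0.051 for Pvt1, −0.0666 to 0.0019 for Dhx15, −0.0934 to 0.475 for Gclc, −0.091 to 0.0335 for Kmt2c, −0.0568 to 0.0025 for Wapl, −0.0915 to 0.176 for Arfgap3 and −0.0768 to 0.115 for Hmcn1. The members had a median of 58.7 reads, and the abundant Gm31583 also had an SE of 0.28.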
